A study of Mus musculus with 12 samples.

Results

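The loss of the histone demethylase LSD1 was compared between 2 kinds of splenic B cell, by asking at each open chromatin region whether the knockout effect in marginal zone B cells (MZB) equalled the knockout effect in follicular B cells (FoB). The quantity is an interaction on the log2 scale: knockout minus wild type in MZB, minus knockout minus wild type in FoB. A positive interaction means that the region rose more, or fell less, in MZB than in FoB. All regions with at least 1 rppm (RPM over the deposited regions, which sum to the same total in every library) in at least 3 of the 12 libraries entered the comparison, which were 89782 of 94161 regions. The region just inside this filter had 1.017 rppm in the lowest of its 3 highest libraries, and the one just outside had 0.9638 rppm.

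The assay was ATAC-seq, which reads out where a transposase can reach the DNA. Each library came from 10000 unstimulated cells of female C57BL/6J mice, and each of the 4 groups held 3 libraries. The groups were MZB labelled LSD1 knockout, MZB labelled wild-type, FoB labelled LSD1 knockout and FoB labelled wild-type. MZB were gated as CD23-, CD21hi and CD1d+, and FoB as CD23+, CD21mid and CD1d-. Both gates took B220+ cells that were negative for GL7, CD93, CD11b, F4/80 and Thy1.1. Neither the cells in which the gene was deleted, nor the Cre driver, nor the deleted part of the gene could be read from the sources used here.

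LSD1, encoded by Kdm1a, is a demethylase of histone H3 lysines and works in complexes with CoREST and histone deacetylases, where it is best known for silencing enhancers and promoters. Marginal zone B cells sit at the edge of the splenic white pulp, depend on Notch2 signalling and answer blood-borne antigens quickly. Follicular B cells recirculate through the follicles and feed T-cell-dependent responses.

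Promoter sequences are shown for 4 genes picked by hand. Of these, 3 have a start-site region that moved alike in both cell types. The start-site region of the other 1 had one of the smallest interaction p-values, though it did not pass. The windows are the 250 bases upstream of the start site in RefSeq on GRCm38.p6 (the same assembly as mm10), written 5′ to 3′ on the gene's strand. Both strands were searched for the CCAAT box (these 5 letters), the GC box GGGGCGGGG, the E box CAGGTG, the ETS letters CCGGAAGT, the PU.1 letters GAGGAAGT, the CRE TGACGTCA and the RUNX letters TGTGGTTT, and the letters that match stand in capitals. Cnr2 encodes cannabinoid receptor 2, a receptor that helps to hold B cells in the marginal zone. Its window lies at chr4:135911430-135911679 on the plus strand, at a start site inside the gene and not at the gene's first. Lgr4 encodes a receptor for R-spondins, which strengthen Wnt signalling, and its window lies at chr2:109917397-109917646 on the plus strand. Tsc22d1 encodes a leucine zipper protein induced by TGF-beta, and its window lies at chr14:76414711-76414960 on the plus strand. Dgkg encodes a diacylglycerol kinase, which turns the second messenger diacylglycerol into phosphatidic acid, and its window lies at chr16:22657232-22657481 on the minus strand.
Cnr2 promoter: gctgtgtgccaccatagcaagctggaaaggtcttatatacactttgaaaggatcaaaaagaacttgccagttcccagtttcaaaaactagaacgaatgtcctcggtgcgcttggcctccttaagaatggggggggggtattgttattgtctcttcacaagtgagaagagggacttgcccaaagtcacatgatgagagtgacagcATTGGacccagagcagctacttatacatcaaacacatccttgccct
Lgr4 promoter: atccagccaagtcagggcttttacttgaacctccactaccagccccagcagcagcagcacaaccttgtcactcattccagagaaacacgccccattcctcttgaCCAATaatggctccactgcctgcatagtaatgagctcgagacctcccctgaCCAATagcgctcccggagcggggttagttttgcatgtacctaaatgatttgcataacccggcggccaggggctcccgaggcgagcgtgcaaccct
Tsc22d1 promoter: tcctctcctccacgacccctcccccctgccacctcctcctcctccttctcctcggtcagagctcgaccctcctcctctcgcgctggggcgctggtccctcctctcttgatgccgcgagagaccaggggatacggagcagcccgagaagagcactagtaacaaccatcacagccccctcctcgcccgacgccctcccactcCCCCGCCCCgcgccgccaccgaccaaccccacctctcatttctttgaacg
Dgkg promoter: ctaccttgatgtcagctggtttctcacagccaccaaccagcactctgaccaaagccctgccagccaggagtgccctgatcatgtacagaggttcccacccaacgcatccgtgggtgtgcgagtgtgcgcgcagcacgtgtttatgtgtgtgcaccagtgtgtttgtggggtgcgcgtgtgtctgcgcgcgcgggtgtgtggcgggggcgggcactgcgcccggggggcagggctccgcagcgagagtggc
The Cnr2 window held 1 CCAAT box, the Lgr4 window 2 CCAAT boxes and the Tsc22d1 window 1 GC box, while the Dgkg window held 0 matches. Over 32536 promoter windows of this length, 33.8% held a CCAAT box, 10.5% a GC box, 17.3% the E box letters, 2.9% the ETS letters, 2.45% the PU.1 letters, 1.56% the CRE and 1.5% the RUNX letters. A match is a description of the letters and not a bound site.

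Reads over the regions ran from 3169966 to 10375328 per library, the highest being FoB wild-type library 2, and 3 reads corresponded to 0.2891 to 0.9464 rppm. Regions of genes that define the 2 cell types were summed per library. Cd9 gave 266.5 to 288 rppm in wild-type MZB against 85 to 101.1 in wild-type FoB, and Fcer2a, which encodes CD23, gave 44.8 to 53.18 against 92.26 to 102.2. Cr2, which encodes CD21, was slightly higher in FoB, with 285 to 302.8 rppm in wild-type MZB and 321.9 to 365.8 in wild-type FoB. Kdm1a had 1 region, at its start site, with an interaction of 0.27 ± 0.22 (SE) on the log2 scale and an adjusted p of 0.889. This region checks no label, because the deleted part is not known. FoB wild-type library 2 stood apart: at many, though not all, of the 140 regions called in both cell types, it lay part of the way from the other wild-type FoB libraries to the knockout ones. Its part in the results was not tested beyond leaving it out, and some of the results, not all, are given with and without it.

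Of the 89782 regions, 1 passed the interaction test, with the effect higher in MZB (0.00111%), and 0 passed with the effect lower. The test was limma with Benjamini-Hochberg adjustment and a threshold of 0.05. At an unadjusted p under 0.05 there were 2753 regions with a higher effect in MZB and 2832 with a lower one, together 6.22% of the regions. On the recovered reads, edgeR called 2 regions higher and 0 lower, and DESeq2 called 1 higher and 0 lower. The median interaction over all regions was -0.0014. The interaction's standard error had a median of 0.398, and its 95% interval lay within 1 log2 unit of 0 for 39331 regions (43.8%). At 50429 regions the interval crossed 1 or -1, so whether the effects differ by 2-fold was not resolved at this depth and number of libraries. At 22 regions it lay wholly beyond 1 log2 unit, and at these the interaction did not pass after adjustment.

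The region that passed lies in the body of Ccdc93, which encodes a subunit of a complex that returns membrane proteins from endosomes to the cell surface. It spans chr1:121461682-121462971, at 101611 bp from the nearest start site among the promoter windows used, which may lack the gene's own start. MZB gave 85.3, 87.5 and 81.2 rppm in the wild-type libraries and 67.9, 67.8 and 64.1 in the knockout libraries. FoB gave 78.3, 65.6 and 80.0 rppm in the wild-type libraries and 32.1, 36.5 and 28.2 in the knockout libraries. Knockout libraries were lower than wild-type ones in both cell types, with no overlap, and the 3 knockout FoB libraries were the lowest of all. The fall was -0.34 ± 0.10 (SE) in MZB (limma, adjusted p = 0.0864) and -1.2 ± 0.10 in FoB (adjusted p = 2.72e-10). The interaction was 0.86 ± 0.14 (95% interval 0.58 to 1.14; adjusted p = 0.0288). When 1 library was left out at a time, the interaction stayed between 0.77 and 0.95, while its adjusted p ran from 0.0029 to 0.237. The call was lost in 8 of the 12 such fits and kept without FoB knockout library 1 or 2, FoB wild-type library 2 or MZB knockout library 3. It was also lost with a pseudocount of 0.1 and with eBayes without trend, where the adjusted p reached 0.51.

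Next in rank was a region in the body of Rgs18, which encodes a regulator that speeds the shut-off of G protein signals (chr1:144775155-144775783). Wild-type MZB gave 41.8, 44.1 and 42.3 rppm and knockout MZB 30.6, 26.5 and 31.3. Wild-type FoB gave 33.7, 26.2 and 39.9 rppm and knockout FoB 9.93, 12.2 and 6.86. As at Ccdc93, the knockout libraries lay lower in both cell types without overlap, and lowest in FoB. The effect was -0.53 ± 0.15 in MZB (adjusted p = 0.0845) and -1.75 ± 0.15 in FoB (adjusted p = 1.32e-09). The interaction of 1.22 ± 0.21 (0.78 to 1.65) did not pass (adjusted p = 0.0545). Without FoB wild-type library 2 it was 1.37 with an adjusted p of 0.00319, and it passed without FoB knockout library 2 as well. It also passed with TMM scaling, edgeR with and without TMM, a pseudocount of 2, a replicate block within genotype and robust eBayes, and its adjusted p over all alternatives ran from 0.00319 to 0.515.

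Wwox and Serp2 showed the other form of a positive interaction, a rise that was called in MZB only and from a lower wild-type level. The Wwox region (chr8:114803086-114803654) lies in the gene of a WW-domain oxidoreductase that spans a fragile site. It gave 9.99, 10.9 and 9.95 rppm in wild-type MZB and 20.1, 23.7 and 18.6 in knockout MZB. In FoB it gave 65.4, 57.5 and 56.1 rppm in wild type and 65.8, 63.0 and 49.8 in knockout. The MZB groups stood apart, while the FoB groups overlapped and all 6 FoB libraries were higher than any MZB library. The effect was 0.98 ± 0.12 in MZB (adjusted p = 7.71e-06) and -0.01 ± 0.12 in FoB (adjusted p = 0.99). The interaction of 0.99 ± 0.17 (0.63 to 1.34) did not pass (adjusted p = 0.0545). It passed without FoB knockout library 1, without MZB knockout library 3, and with TMM scaling, a pseudocount of 2, quantile normalisation, either replicate block and robust eBayes. Its adjusted p over all alternatives ran from 0.0198 to 0.632.

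A region 22621 bp from Serp2, a gene of the stress-associated endoplasmic reticulum protein family, behaved likewise (chr14:76579695-76580294). It gave 4.05, 3.46 and 2.18 rppm in wild-type MZB and 7.93, 12.9 and 10.1 in knockout MZB. Wild-type FoB gave 35.6, 42.3 and 41.1 rppm and knockout FoB 44.7, 52.9 and 45.2. The knockout libraries were higher in both cell types without overlap, and the knockout MZB libraries still lay below every FoB library. The effect was 1.54 ± 0.17 in MZB (adjusted p = 6.21e-07) against 0.26 ± 0.17 in FoB (adjusted p = 0.713), and the interaction of 1.28 ± 0.24 had an adjusted p of 0.136. It passed after quantile normalisation and with a replicate block within genotype, and its adjusted p over all alternatives ran from 0.0284 to 0.669.

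At the start site of Dgkg, whose promoter is printed above, the effects had opposite signs (chr16:22656739-22657439). Wild-type MZB gave 25.9, 33.2 and 32.7 rppm and knockout MZB 37.3, 38.8 and 32.5. Wild-type FoB gave 12.9, 12.8 and 11.2 rppm and knockout FoB 6.42, 5.36 and 8.13. The MZB groups overlapped and the FoB groups did not. FoB fell by 0.86 on the log2 scale (SE 0.15, adjusted p = 0.00139), the MZB value was 0.24 ± 0.15 (adjusted p = 0.503), and the interaction of 1.103 ± 0.213 had an adjusted p of 0.142. Of the printed window's 250 bases, 208 lay in this region.

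No region passed with a negative interaction, and the 5 with the smallest p follow as values that did not pass. The first lies 28871 bp from Pag1, which encodes a membrane adaptor that holds the kinase Csk near antigen receptors. It gave 11.3, 11.7 and 10.3 rppm in wild-type MZB and 6.76, 6.63 and 6.50 in knockout MZB. FoB gave 2.19, 2.99 and 2.87 in wild type and 4.55, 5.56 and 5.85 in knockout. Knockout libraries were lower in MZB and higher in FoB, with no overlap in either. The interaction was -1.57 ± 0.31 with an adjusted p of 0.142, and the FoB effect of 0.87 reached an adjusted p of 0.0499 while the MZB effect of -0.70 had 0.122.

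The region in Crim1, whose product binds bone morphogenetic proteins, had a similar pattern. It gave 15.4, 23.1 and 19.0 rppm in wild-type MZB and 8.396, 6.63 and 13.9 in knockout MZB. FoB gave 2.19, 3.95 and 2.39 in wild type and 5.38, 3.91 and 4.32 in knockout. The MZB groups stood apart, and the FoB groups overlapped. Its interaction was -1.62 ± 0.34 (adjusted p = 0.203), from -1.001 in MZB (adjusted p = 0.032) and 0.62 in FoB (adjusted p = 0.362). The others, far from their nearest genes or with few reads, were near Mmadhc (-1.27 ± 0.26, adjusted p = 0.198), Prxl2c (-2.97 ± 0.63, adjusted p = 0.22) and Gm6460 (-2.27 ± 0.48, adjusted p = 0.243). At Prxl2c the knockout MZB libraries held 1 read in all against 11 in the wild-type ones, a ratio of 11.2 with a counting interval of 1.62 to 481.

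**Figure D1:**
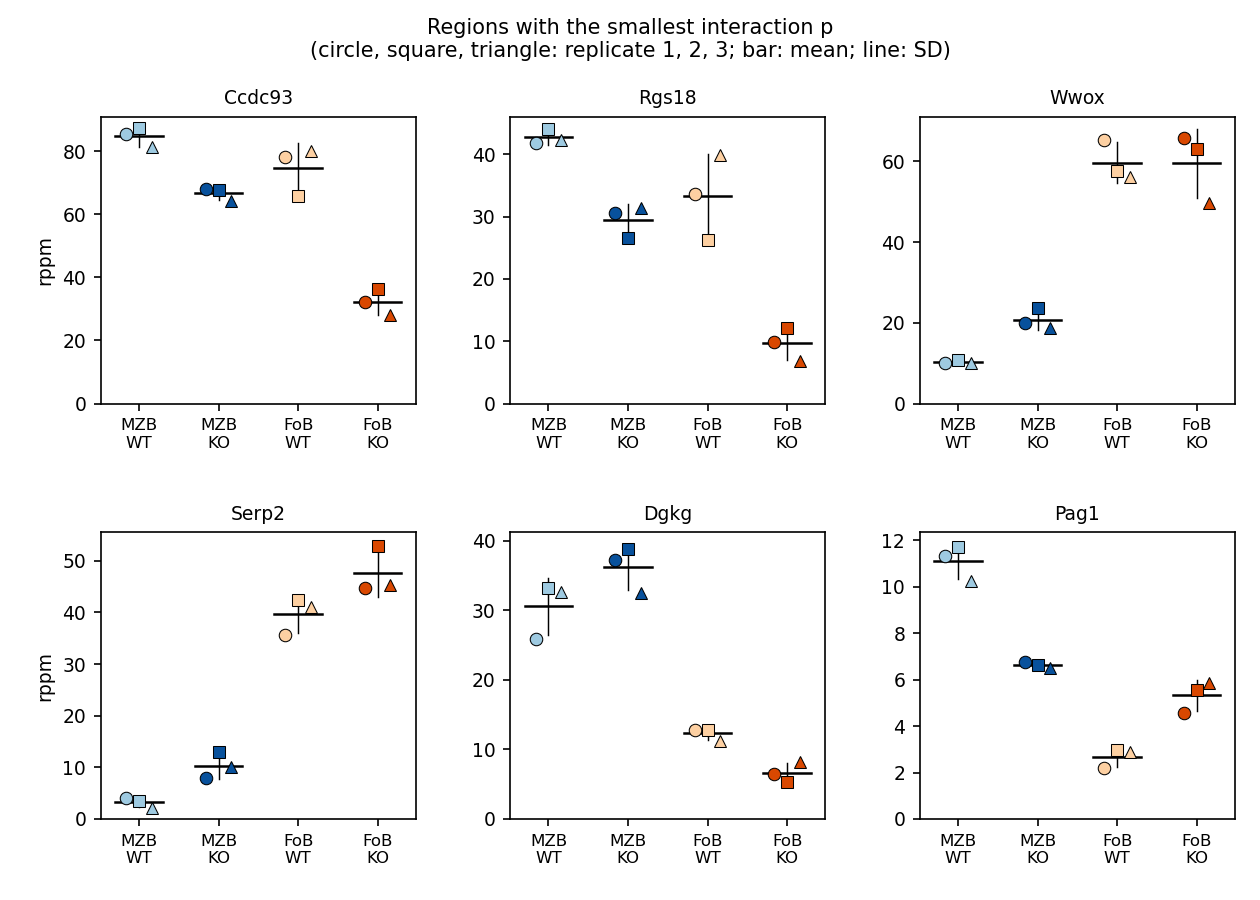
Accessibility in rppm (vertical axes, from 0) in each library at the 6 regions with the smallest interaction p, with the mean as a bar and the SD as a line (3 libraries per group). Ccdc93 and Rgs18 fell further in FoB than in MZB, Wwox and Serp2 were called higher in MZB only, and at Pag1 the knockout libraries lay lower in MZB and higher in FoB. Of the 6, Ccdc93 alone passed the interaction test.

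Agreement was asked for separately. A region counted as called in both cell types when knockout against wild type passed the adjusted threshold in MZB and in FoB, which share no library. In the same direction 140 regions did so (0.156%), 91 of them higher in knockout (0.101%) and 49 lower (0.0546%), and 0 regions were called in opposite directions. These 140 regions were assigned to 110 genes. Their effects had a median size of 1.2 in MZB and 1.16 in FoB on the log2 scale, and the interaction a median size of 0.148. The interval of the interaction lay within 1 log2 unit of 0 for 86 of the 140, so for the other 54 agreement in size was not resolved. At 6 of them the interaction had an unadjusted p under 0.05, and at none an adjusted p under 0.05. Groups of both cell types stood apart without overlap in the same direction at 2561 regions (2.85%) and in opposite directions at 458 (0.51%).

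Calls in 1 cell type mostly carried the same sign in the other. MZB had 698 called regions (0.777%), of which 610 (87.4%) had the same sign in FoB. Their median effect was 1.01 in MZB and 0.37 in FoB, and the first of these values is raised by the choice of regions on it. FoB had 484 called regions (0.539%), of which 450 (92.98%) had the same sign in MZB, with medians of 0.93 in FoB and 0.45 in MZB. Over all tested regions 58.3% had the same sign. The correlation of the effects across the 89782 regions was 0.243 by Pearson and 0.223 by Spearman. These are descriptions across regions of the same libraries and not across replicates.

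Few calls in 1 cell type alone came with a called difference between the cell types. Of the 558 regions called in MZB and not in FoB, 0 passed the interaction test, and the interval of the interaction excluded 0 at 320 and lay within 1 log2 unit of 0 at 206. Of the 344 called in FoB and not in MZB, 1 passed (Ccdc93), the interval excluded 0 at 179 and lay within 1 at 139. The interval counts rest on regions chosen for an effect in 1 cell type, which moves the interaction away from 0.

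**Figure D2:**
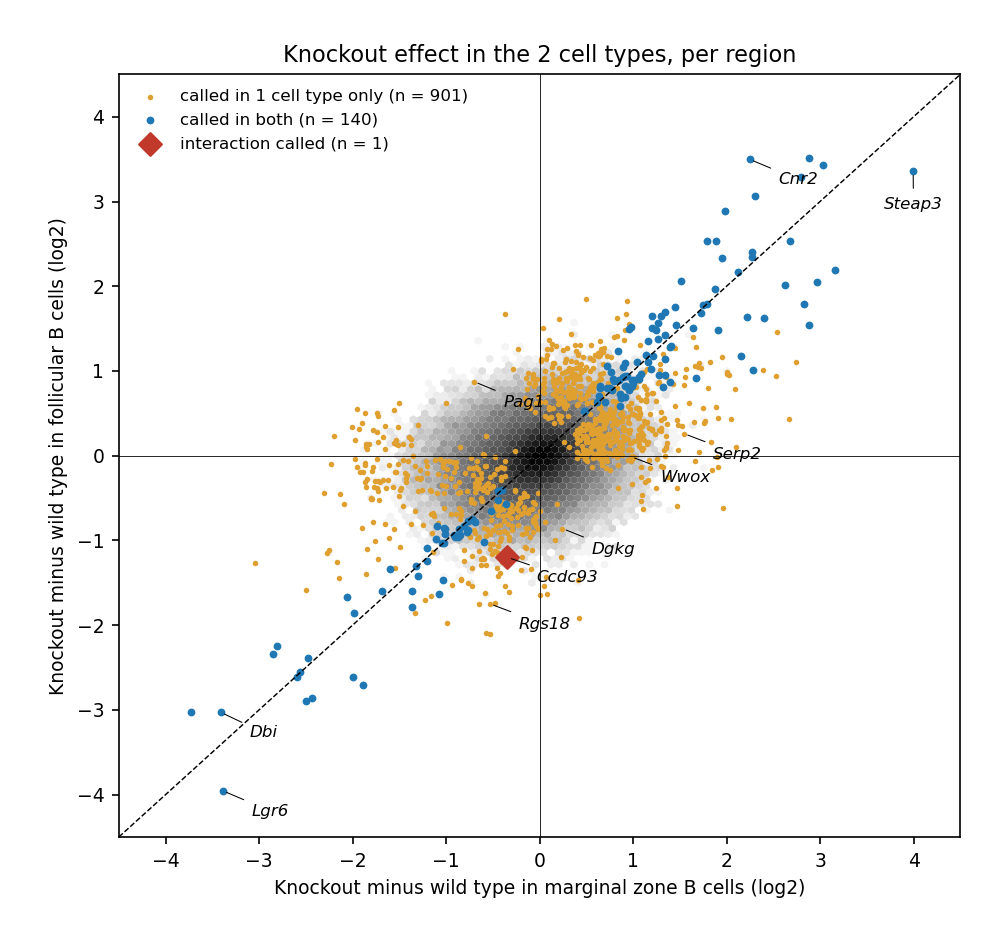
Knockout minus wild type in MZB (horizontal axis, log2) against the same in FoB (vertical axis, log2), with grey shading for the density of all 89782 regions, orange points for regions called in 1 cell type, blue for the 140 called in both and a red diamond for Ccdc93. The blue points lie in the upper right and lower left along the dashed line of equal effects.

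Among the regions higher in knockout in both cell types, the one near Steap3 had the highest value of the smaller effect. Steap3 encodes an iron reductase of endosomes, and the region lies 26845 bp from it at chr1:120297926-120298358. Wild-type MZB gave 0.54, 1.33 and 0.93 rppm and knockout MZB 22.4, 21.1 and 21.9. Wild-type FoB gave 0.55, 15.4 and 0.48 rppm and knockout FoB 24.6, 24.3 and 27.7. FoB wild-type library 2 stood near the knockout level, while the other 5 wild-type libraries were close to 0. The effect was 3.996 ± 0.488 in MZB (adjusted p = 3.97e-06) and 3.36 ± 0.49 in FoB (adjusted p = 9.5e-05), with an interaction of 0.64 (-0.76 to 2.04).

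Near 37 Mb on chromosome 15, regions at Grhl2, an epithelial transcription factor gene, Rrm2b, a p53-induced subunit of ribonucleotide reductase, and Ncald, a neuronal calcium sensor gene, rose together in both cell types. At Rrm2b wild-type MZB gave 0.54, 0.53 and 0.93 rppm and knockout MZB 6.53, 6.63 and 9.75, and wild-type FoB gave 0, 3.08 and 0.24 against 9.73, 10.5 and 10.4. No knockout library overlapped a wild-type one, and FoB wild-type library 2 was the highest of the wild-type libraries. The effects were 2.80 in MZB and 3.29 in FoB at Rrm2b, 3.03 and 3.43 at Grhl2, and 2.68 and 2.54 at Ncald. Grhl2 held 3 reads in the wild-type MZB libraries together against 69 in the knockout ones, a ratio of 22.7 (counting interval 7.44 to 113).

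Cnr2 held regions of both directions. The region 8907 bp from the gene's first start (chr4:135885753-135886282) gave 5.67, 3.99 and 3.11 rppm in wild-type MZB and 20.1, 22.1 and 22.5 in knockout MZB. In FoB it gave 0.55, 6.55 and 0 in wild type and 16.4, 15.5 and 19.3 in knockout. Knockout libraries were higher in both cell types without overlap. The effects were 2.25 ± 0.43 in MZB (adjusted p = 0.00378) and 3.50 ± 0.43 in FoB (adjusted p = 7.02e-06), and the interaction was -1.25 (-2.48 to -0.02; adjusted p = 0.8). Without FoB wild-type library 2 the interaction was -2.35 with an adjusted p of 0.0029, and with edgeR on the reads of all 12 libraries it was 0.13 (adjusted p = 0.987), so its sign depends on the method.

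The start-site region of the same gene (chr4:135911351-135912054) fell. It lies at a different start, inside the gene, and holds the whole printed Cnr2 window. Wild-type MZB gave 18.6, 17.3 and 20.2 rppm and knockout MZB 11.7, 11.4 and 11.2. Wild-type FoB gave 26.0, 20.9 and 26.3 rppm and knockout FoB 16.4, 12.8 and 13.0. The groups stood apart in both cell types. The effects were -0.69 ± 0.15 (adjusted p = 0.0118) and -0.78 ± 0.15 (adjusted p = 0.00329), and the interaction of 0.09 (-0.32 to 0.51) lay within 1 log2 unit of 0.

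The start-site regions of Lgr4 and Tsc22d1, whose windows are printed above, also had interactions within 1 log2 unit of 0. Lgr4 gave 41.6, 47.6 and 45.1 rppm in wild-type MZB and 21.0, 23.0 and 27.2 in knockout MZB. FoB gave 24.9, 22.5 and 19.3 in wild type and 7.86, 11.3 and 15.5 in knockout. It fell by 0.91 in MZB (SE 0.16, adjusted p = 0.0012) and by 0.96 in FoB (adjusted p = 0.000601), with an interaction of 0.05 (-0.40 to 0.50). Tsc22d1 gave 16.5, 15.4 and 16.8 rppm in wild-type MZB and 30.8, 29.3 and 33.1 in knockout MZB. FoB gave 10.7, 15.8 and 11.5 in wild type and 22.1, 20.6 and 24.7 in knockout. It rose by 0.92 ± 0.14 in MZB (adjusted p = 0.000237) and 0.82 ± 0.14 in FoB (adjusted p = 0.00115), with an interaction of 0.10 (-0.31 to 0.50). At both genes all knockout libraries lay on one side of all wild-type libraries of the same cell type.

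Of the lower regions, one in Lgr6, the gene of a receptor related to Lgr4, had the most negative value of the smaller effect (chr1:135095113-135095653). Wild-type MZB gave 18.6, 24.5 and 21.2 rppm and knockout MZB 1.399, 1.58 and 1.77. Wild-type FoB gave 13.1, 8.39 and 12.4 rppm and knockout FoB 0, 0.62 and 0.25. The knockout libraries were near 0 in both cell types. The effects were -3.39 ± 0.28 (adjusted p = 6.79e-10) and -3.95 ± 0.28 (adjusted p = 1.88e-11), and the interaction 0.56 (-0.24 to 1.37) did not resolve whether they differ by up to 2-fold.

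Near Dbi, an acyl-CoA-binding protein gene, a region fell by 3.41 in MZB and by 3.03 in FoB. Near Ren1, the renin gene, a region fell by 2.43 and by 2.86, from 14.6, 13.3 and 13.4 rppm in wild-type MZB to 1.63, 2.52 and 2.36, and from 16.2, 11.5 and 14.3 in wild-type FoB to 1.45, 1.44 and 1.53. The levels of the 2 cell types overlapped in wild type and stood near 0 in knockout. A region in Pithd1 held 0 reads in all 6 knockout libraries against 34 reads in wild-type MZB and 35 in wild-type FoB. Against a floor of 3 reads over the group, it was at least 11.5-fold lower in MZB and at least 8.72-fold lower in FoB.

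A region in Rab7b, an endosomal GTPase gene, held 78 reads in wild-type MZB against 1 in knockout (ratio 79.2, counting interval 13.8 to 3170) and 90 against 3 in FoB (22.4, 7.43 to 111). Of 2 regions near Cd55, which encodes a brake on complement, the one 13124 bp away fell by 2.48 in MZB and by 2.38 in FoB, and the one 327 bp away by 1.11 and by 0.98. Smaller Rgs18 and Rgs1 regions also fell in both cell types. The Rgs18 one (chr1:144767766-144767957) went from 6.21, 6.11 and 4.98 rppm to 1.399, 0.95 and 0.89 in MZB, and from 4.65, 2.79 and 5.97 to 0.21, 0.41 and 0.25 in FoB. Its effects were -1.998 and -2.607, with an interaction of 0.61 (-0.36 to 1.58). The 2 Rgs18 regions described here, of 13 tested at the gene, were lower in knockout in both cell types. They had the larger fall in FoB, and the gene's other regions are not described. Neither interaction passed. The Rgs1 region fell by 0.71 in MZB and by 0.75 in FoB, with an interaction of 0.04 (-0.40 to 0.48).

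**Figure D3:**
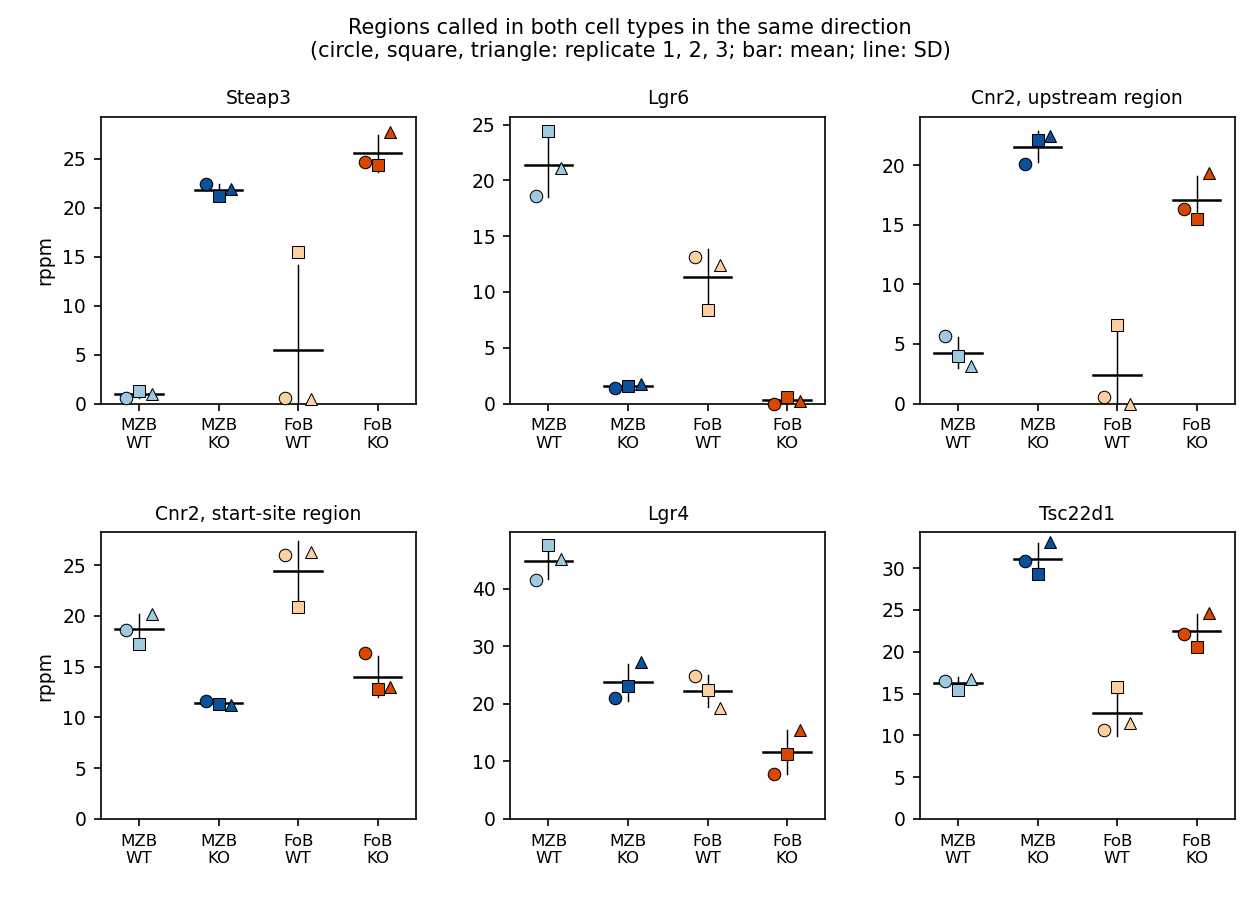
Accessibility in rppm (vertical axes, from 0) in each library at 6 regions called in both cell types, with the mean as a bar and the SD as a line (3 libraries per group). The square in the wild-type FoB group, library 2, sits at 15.4 rppm at Steap3 and 6.55 at the upstream Cnr2 region, above the other wild-type FoB libraries.

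At 18 of the 24 regions named for agreement, or standing in a gene list and called in both, both calls were kept whichever library was left out. The exceptions were both Cnr2 regions, Cyb5r1, Ube2t, Rgs1 and the Cd55 region 327 bp away. Variance settings and tools ended more calls. With eBayes without trend 17 of the 24 were lost, namely all 10 named higher regions, Brinp3, Tnni1, Asap2, Rgs1, both Cd55 regions and the Cnr2 start-site region. With DESeq2 6 were lost (Grhl2, Rrm2b, Tcea3, the Cnr2 start-site region, Rgs1 and the nearer Cd55 region), and with robust eBayes Steap3 and the upstream Cnr2 region. Of the remaining named regions, those at Gm17266, Tcea3, Cyb5r1, Ube2t and Kif14 rose by 1.88 to 3.16 in MZB and by 1.97 to 2.33 in FoB. Those at Brinp3, Rpl11 and Tnni1 fell by 1.89 to 2.60 in MZB and by 1.86 to 2.70 in FoB. Tcea3 encodes a factor that helps stalled RNA polymerase II, Ube2t an enzyme of DNA crosslink repair, Kif14 a mitotic kinesin, Rpl11 a ribosomal protein and Tnni1 a troponin of slow muscle.

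**Figure D4:**
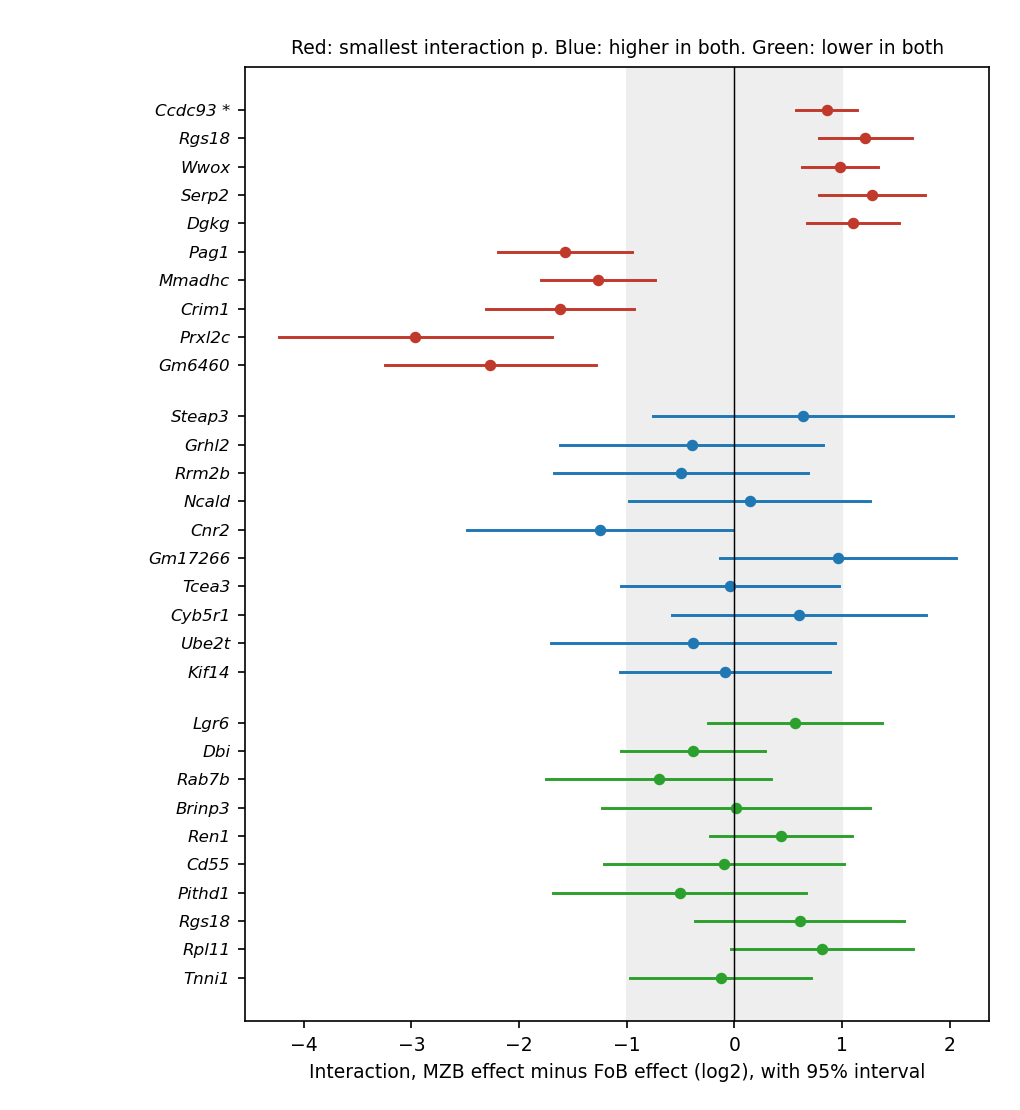
Interaction (horizontal axis, log2, MZB effect minus FoB effect) with its 95% interval at the regions with the smallest interaction p (red; the asterisk marks the one that passed) and the 10 named regions higher (blue) and 10 lower (green) in both cell types. The shaded band covers 1 log2 unit on each side of 0, and of the 20 named agreeing regions the interval at Tnni1 lies inside it, while the others reach beyond.

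The agreeing regions were gathered in few stretches of the genome. Chosen after their values were seen, the 7 bins of 5 Mb with at least 5 regions called in both held 75 of the 140 (53.6%) but 1667 of the tested regions (1.86%). They start at 120, 130 and 135 Mb on chromosome 1, at 135 Mb on chromosome 4, at 55 Mb on chromosome 12, at 35 Mb on chromosome 15 and at 80 Mb on chromosome 18. The chromosome 4 bin also holds Kdm1a itself. The 2 directions stood side by side in the bin at 130 Mb on chromosome 1 (9 higher, 9 lower), while the bin on chromosome 15 held 13 higher and 0 lower and the one on chromosome 12 held 5 higher and 0 lower. Within the 7 bins 97.7% of the MZB calls and 100% of the FoB calls had the same sign in the other cell type, and outside them 85.0% (483 of 568) and 91.0% (344 of 378). The Pearson correlation of the effects was 0.696 inside and 0.216 outside. The bins were chosen for holding regions called alike in both cell types, so that choice fixes these contrasts, and they show nothing further about the bins. Ccdc93 lies in the bin at 120 Mb on chromosome 1, together with 7 regions called in both, among them those at Steap3 and Dbi.

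FoB wild-type library 2 moved with these bins. On a scale where 0 is the mean of the other wild-type FoB libraries and 1 the knockout mean, its median position was 0.386 over the 75 regions in the bins and 0.214 over the 65 elsewhere. It stood above 0.25 at 53 of the 75 and at 28 of the 65. The medians of the MZB libraries and of the knockout FoB libraries lay between -0.10 and 0.06 in either set. It is also the most deeply sequenced library, and what places it there was not tested. Without it 96 regions were called higher and 44 lower in both cell types, and 127 of these were among the 140. The interaction then passed at 2 regions higher in MZB and at 1 lower, the upstream Cnr2 region.

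The bin at 140 Mb on chromosome 1, which holds Rgs1, Rgs2, Rgs13 and Rgs18, had many calls in FoB and few in MZB. There 15 regions fell in FoB and 3 in MZB, all 3 of them among the 15. The medians over the bin's 107 regions were -0.40 in FoB and -0.43 in MZB, the median interaction was 0.0025, and 0 regions passed the interaction test. The unequal number of calls was therefore not matched by an unequal median.

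Outside the 7 bins 42 regions rose and 23 fell in both cell types, and 55 of these 65 had an interaction within 1 log2 unit of 0. The following were picked from them after their values were seen. A region in Snd1, which encodes a nuclease-domain coactivator, rose by 1.75 in MZB and 1.77 in FoB, and one in Bicral by 1.27 and 1.38. A pair of regions in Brinp3 fell by 2.60 and 2.56 in MZB and by 2.61 and 2.55 in FoB. A region in Bcl2, the gene of a survival factor of B cells, fell by 1.08 in MZB and by 1.63 in FoB, with an interaction of 0.55 (-0.08 to 1.19). A region in Slc15a2, a peptide transporter gene, rose by 2.15 in MZB and 1.17 in FoB, and its interaction of 0.98 (0.29 to 1.66) had an adjusted p of 0.732.

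Regions at the start sites used held about their share of the agreeing regions. A region at a start missing from that set was counted in another class. Of the 86738 tested regions on chromosomes whose start sites were used, 14234 (16.4%) lay within 1000 bp of one. So did 21 (17.5%) of the 120 agreeing regions on these chromosomes. An unadjusted interaction p under 0.05 was found at 5.27% of start-site regions and at 7.70% of regions between genes and over 50000 bp from the nearest. The latter were shorter, with a median width of 265 bp against 644, and had a larger median standard error (0.519 against 0.212).

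Gene lists were read by their counts and medians beside those of all regions. The interaction test was passed by 0 regions in each of the 26 lists (background 0.00111%), so no list contains a called difference between the cell types. At an unadjusted p under 0.05, which 3.07% of all regions reached upward and 3.15% downward, several lists held more higher than lower regions. They included lists of B cell genes and lists of other genes, such as T cell markers and histone lysine methylation enzymes. The lists share genes, and neighbouring regions of a gene are not independent.

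B lineage transcription factors had 50 regions with a higher and 18 with a lower MZB effect of 1066. Tcf4, which encodes an E protein, held 6 of the higher ones of its 68 regions, Sox4 5 of 36, Lef1 4 of 23 and Irf8 4 of 31. Ebf1 held 4 higher and 2 lower of 83, and Bach2 4 higher and 3 lower of 87. Id2, whose product blocks E proteins, held 5 lower and 0 higher of 51, while the related Id3 held 1 higher and 0 lower of 15. The other E protein genes held few: Tcf3 1 higher and 0 lower of 6, and Tcf12 2 higher and 1 lower of 27. At one Tcf4 region wild-type MZB gave 6.48, 6.91 and 7.15 rppm and knockout MZB 17.0, 16.7 and 18.9. FoB gave 5.75, 7.33 and 5.73 in wild type and 6.83, 9.68 and 7.62 in knockout. MZB groups stood apart and FoB groups overlapped. The effect was 1.30 in MZB (adjusted p = 6.7e-05) and 0.33 in FoB (adjusted p = 0.631), and the interaction of 0.97 ± 0.26 did not pass (adjusted p = 0.616). Without FoB wild-type library 2 the list had 40 higher and 27 lower regions, and all tested regions 2204 and 2857.

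Genes that mark immature and transitional B cells, which the CD93 gate should leave out, had 14 higher and 2 lower regions of 156 and a median interaction of 0.12, against -0.0014 over all regions. The list shares Sox4 and Lef1 with the list of factors, and these gave 9 of the 14. The list's regions summed to 1303 to 1370 rppm in wild-type MZB, 1491 to 1507 in knockout MZB, 1457 to 1562 in wild-type FoB and 1540 to 1674 in knockout FoB. Cd93 itself summed to 90.4 to 103 rppm in wild-type MZB, 120 to 135 in knockout MZB and 159 to 186 in FoB of either genotype. In MZB the sums were higher in knockout, nearer to the FoB range, and whether a few immature cells take part was not tested. The start-site region of Sox4 gave 58.0, 65.7 and 58.5 rppm in wild-type MZB and 76.7, 83.9 and 79.5 in knockout MZB. FoB gave 79.1, 83.2 and 81.9 in wild type and 89.2, 79.9 and 82.3 in knockout. It rose in MZB by 0.40 (adjusted p = 0.0116), the FoB value was 0.04 (adjusted p = 0.943), and the interaction of 0.36 ± 0.12 had an adjusted p of 0.729. Without FoB wild-type library 2 the list had 8 higher and 6 lower regions and a median of 0.088.

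B cell receptor signalling had 13 higher and 1 lower region of 295 (11 and 2 without that library), with a median interaction of 0.05. Prkcb, a kinase gene downstream of the receptor, held 4 of the higher regions and the lower one. The start-site region of Pik3cd, the catalytic subunit gene of a lymphocyte PI3 kinase, gave 13.2, 12 and 12.1 rppm in wild-type MZB and 17.0, 16.7 and 18.0 in knockout MZB, against 28.5, 26.1 and 27.2 and then 24.8, 16.9 and 22.1 in FoB. Knockout libraries were higher in MZB and lower in FoB without overlap. Neither effect was called, and the interaction of 0.82 ± 0.20 had an adjusted p of 0.5.

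The Notch list had 12 higher and 5 lower regions of 253 and a median of 0.09. Hes5, a Notch target gene, gave 13.5, 18.1 and 17.4 rppm in wild-type MZB and 22.9, 24.6 and 28.1 in knockout MZB, with overlapping FoB groups between 21.6 and 29.2. Its MZB effect was 0.62 (adjusted p = 0.0185), its FoB effect -0.01, and the interaction of 0.62 ± 0.19 had an adjusted p of 0.683. Maml2, a coactivator gene, held 3 higher regions of 48, and Nrarp, a feedback inhibitor gene, 2 lower of 10. Noncanonical NF-kB genes had 3 higher and 0 lower of 69 and a median of 0.09, and canonical NF-kB genes 4 higher and 3 lower of 205 with a median of -0.01. Without FoB wild-type library 2 the medians were 0.02 and -0.04 in the same order, and canonical genes had 3 higher and 8 lower. At Tnfaip3, which encodes the NF-kB brake A20, a region gave 55.1, 46.8 and 55.4 rppm in wild-type MZB and 46.0, 44.2 and 39.9 in knockout MZB. FoB gave 29.0, 27.9 and 26.3 in wild type and 38.7, 34.4 and 35.3 in knockout. The signs were opposite, neither effect was called, and the interaction of -0.65 ± 0.15 had an adjusted p of 0.5.

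Migration and adhesion genes had 19 higher and 7 lower regions of 345 (14 and 11 without FoB wild-type library 2). The chemokine receptor genes Cxcr4 and Ccr7 held 4 of 44 and 3 of 15 of the higher ones, and Itga4, an integrin gene, 2 lower of 28. Rgs genes had 7 higher and 1 lower of 120. Their calls within a cell type were 2 lower in MZB and 14 lower in FoB, with the 2 called in both, while the medians of -0.22 in MZB and -0.21 in FoB were alike. The Rgs13 region gave 84.5, 80.0 and 79.0 rppm in wild-type MZB and 65.3, 67.5 and 64.4 in knockout MZB, and 82.1, 84.6 and 85.0 and then 55.2, 51.3 and 44.7 in FoB. It fell by 0.73 in FoB (adjusted p = 4.17e-06), the MZB value was -0.30 (adjusted p = 0.0964), and the interaction of 0.43 ± 0.12 had an adjusted p of 0.636.

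Like every other list, the programmes that define the 2 cell types held 0 interaction calls. With 1 call among all 89782 regions, this is not a result about these lists. Marginal zone genes had 19 higher and 11 lower regions of 466 with a median of -0.02 (17 and 20 without FoB wild-type library 2), and follicular genes 11 and 9 of 362 with a median of 0.01. In the marginal zone list 2 regions rose and 1 fell in both cell types, 2 of the 3 at Cnr2 and the other near Asap2, which rose by 1.04 and 1.11. In the follicular list the 2 Cd55 regions fell in both. Toll-like receptor genes had 8 higher and 8 lower of 149, with 4 of the lower ones at Tlr3, and histone lysine methylation enzymes 11 and 4 of 158. Partners of LSD1 had 2 and 1 of 115, plasma cell genes 2 and 4 of 121, germinal centre genes 6 and 2 of 85, activation and AP-1 genes 15 and 12 of 346, and cell cycle genes 6 and 6 of 175. Without FoB wild-type library 2 germinal centre genes had 6 and 4, and cell cycle genes 1 and 6. MHC class II genes had 2 and 3 of 78, interferon response genes 2 and 2 of 76, and housekeeping genes 2 and 0 of 61.

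Marker lists of other cells had 4 higher and 3 lower of 115 for B-1 cells, 6 and 0 of 70 for T cells, 2 and 3 of 91 for myeloid cells, 2 and 2 of 38 for NK cells, 3 and 0 of 79 for dendritic cells and 0 and 0 of 21 for erythroid cells and megakaryocytes. Of the T cell list's 6, Cd2 gave 4, a gene that B cells express too. Without FoB wild-type library 2 the T cell list had 4 higher and 1 lower. Summed T cell regions gave 521 to 540 rppm in wild-type MZB, 532 to 560 in knockout MZB, 481 to 525 in wild-type FoB and 489 to 494 in knockout FoB. Thy1 stood between 0.828 and 4.42 rppm in all libraries, near the value of a few reads. Adgre1 and Itgam, genes of other markers that the gates exclude, stood higher. Adgre1 summed to 111.5 to 111.7 rppm in wild-type MZB, 134.3 to 141.6 in knockout MZB and 142.3 to 150.9 in FoB of either genotype. It held the myeloid list's 2 higher regions. Itgam summed to 63.43 to 73.37 rppm in wild-type MZB, 68.8 to 83.28 in knockout MZB and 47.53 to 52.32 in FoB of either genotype. Whether other cells take part was not tested.

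**Figure D5:**
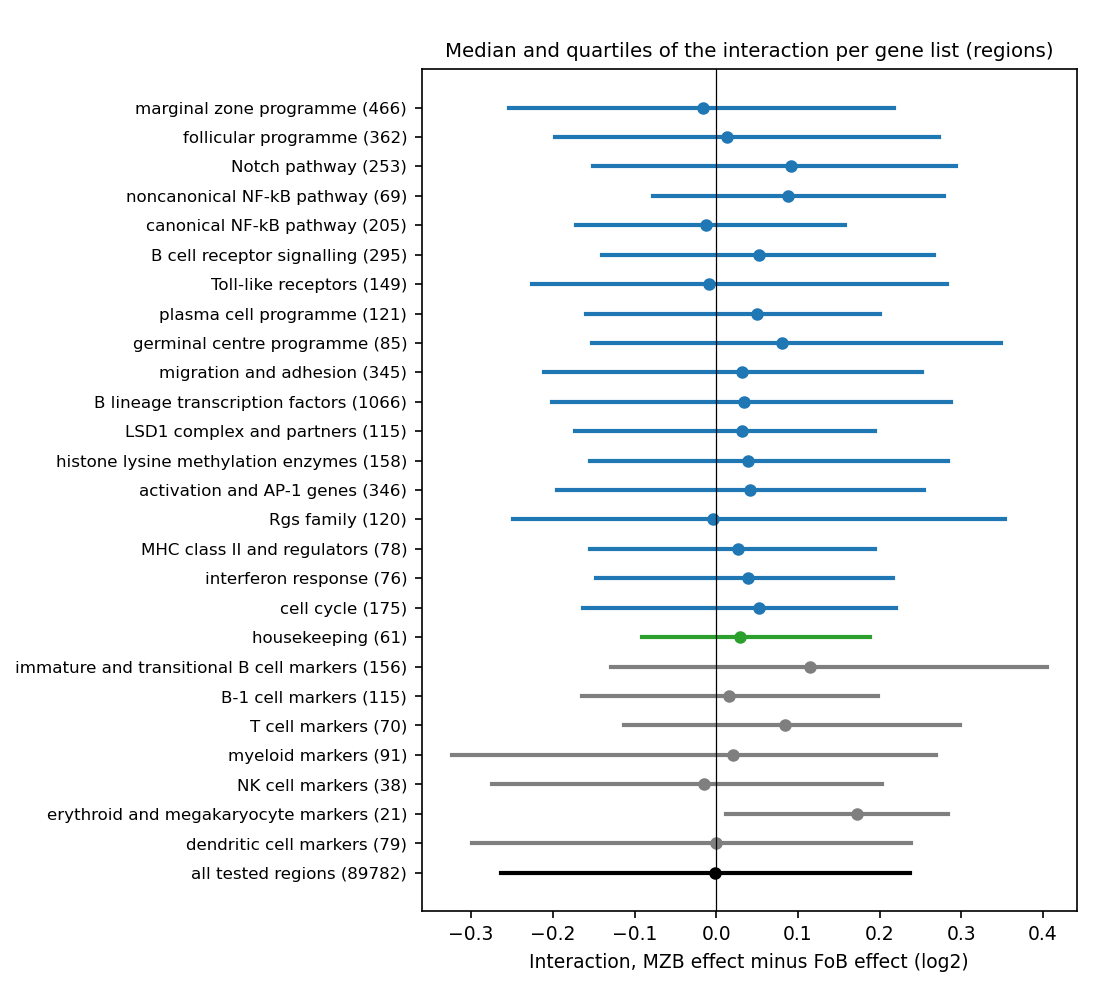
Interaction (horizontal axis, log2) for each of the 26 gene lists and for all 89782 regions, with the median as a point and the quartiles as a line; the number of regions is given beside each name. The medians run from -0.02 to 0.17, the highest being that of the 21 erythroid and megakaryocyte regions, and the quartiles of every list other than that one span 0.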

How the data were processed

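ATAC-seq signal was taken from 1 table of 94161 regions by 12 libraries, which the authors deposited as RPM (here rppm). Per the submitters' processing notes, Bowtie 1.1.1, MACS2 and the build mm10 were used. Read filters, peak merging and any Tn5 offset were not stated there, and coordinates are as deposited. In every library 100% of the values were whole multiples of 1 read within 0.01, so reads were recovered for edgeR 4.0.16 and DESeq2 1.42.0, run as alternatives. Reads have no molecular identifiers, so counting intervals cover counting error only.

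The comparison used limma 3.58.1 in R 4.3.3 (eBayes with trend) on log2(rppm + 0.5), with 1 coefficient per group over the 12 libraries, two-sided tests and Benjamini-Hochberg adjustment over the 89782 regions. Fold changes on this scale understate those of low regions. Adjusted p-values come from it where no other tool is named. Each region took the name of the protein-coding gene it overlaps or lies nearest to in RefSeq (GRCm38.p6). Start sites were those of the promoter windows. They were not used here for chromosome 18, and starts of other genes may be missing from them. Effects were read as agreeing in size where the 95% interval of the interaction lay within 1 log2 unit of 0. The fit was tested on simulated data.

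Named regions were the interaction calls, filled to 5 per direction by the smallest p, the 10 per direction with the largest smaller effect among those called in both, 1 per gene, the list regions with the smallest interaction p or called in both, and, for bins of 5 Mb, those with at least 5 calls. Members, lists and rules were chosen with earlier results of these data known. The labels do not say that libraries of a group came from separate animals, and the p-values then cover the spread among these libraries, which may be technical. No pair of replicates was as alike as counting noise alone would make it (chi-square over its degrees of freedom 1.096 to 1.847). Alternatives were other scalings, filters, pseudocounts, variance settings and tools, a replicate block and leaving out each library. The fit of edgeR without TMM and the list medians under other scalings were added after seeing the data.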

Additional observations from a re-analysis of the deposited data

Results flagged for a closer look

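The Ccdc93 region is listed because the knockout effect differed between the 2 cell types by the test of the difference itself. Its interaction was 0.86 on the log2 scale (limma, adjusted p = 0.0288), and it was higher in MZB because FoB fell further. All 3 knockout FoB libraries lay below all 3 knockout MZB libraries, and the call was lost in 8 of the 12 fits that left out 1 library.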

How the results depend on the processing

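The count of regions with a higher effect in MZB was 1 as reported, 3 with TMM scaling, 2 with edgeR on recovered reads, 2 with edgeR without TMM, 0 with a pseudocount of 0.1, 4 with a pseudocount of 2, 4 after quantile normalisation, 3 with robust eBayes, 0 with eBayes without trend, 0 when at least a 2-fold interaction was asked for and 0 without the bins that hold 5 or more called regions. The count with a lower effect was 0 as reported and 1 with a pseudocount of 2. Regions higher in both cell types numbered 91 as reported, 37 with DESeq2, 2 with eBayes without trend and 27 without those bins. Those lower in both numbered 49, 20, 12 and 11 in the same order. The fall without the bins follows from the regions removed, and the cause of the other moves was not tested. Leaving out 1 library at a time gave 0 to 3 regions higher and 0 to 1 lower for the interaction, 60 to 96 higher and 33 to 47 lower in both cell types, and 0 in opposite directions. The lowest count of regions higher in both, 60, came without MZB knockout library 2.

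With the replicate number as a block, the interaction passed at 2 regions higher and 0 lower, with 98 higher and 53 lower in both cell types. With a replicate block within genotype it passed at 5 and 0, with 110 and 60 in both. Correlations of same-numbered libraries, paired within a genotype or within a cell type, ran from -0.09 to 0.13. In 3 of 12 such pairings the library correlated best with its own number.

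The interaction at the upstream Cnr2 region, -1.25 as reported, was 0.1317 with edgeR on recovered reads and 0.1237 with edgeR without TMM. The cause was not tested. Over all settings that kept the 12 libraries, 435 of 453 values of the interaction at 35 regions kept their direction and side of the threshold. The 2 Cnr2 values are among the 453. With 1 library left out 407 of 420 did so. For calls in both cell types the numbers were 275 of 304 and 268 of 288. Of the 35 regions Ccdc93 alone was called as reported. For most of the others staying uncalled was the likely outcome and says little about them. The median interaction changed sign between scalings or tools for 7 of the 26 lists (marginal zone programme, canonical NF-kB, Toll-like receptors, Rgs, NK, myeloid and dendritic cell markers) and for all tested regions (-0.0014 to 0.021). That count leaves out the fit without FoB wild-type library 2. There the follicular (-0.014), cell cycle (-0.012), interferon response (-0.017) and B-1 (-0.008) medians, positive as reported, were negative too. Depth limits regions of few reads, and the median half-width of the interaction's interval was 0.81 on the log2 scale.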

Other observations

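Of the 140 regions called in both cell types, 6 had an unadjusted interaction p under 0.05, and each gave an adjusted p above 0.15. Tshz1, a zinc finger gene on chromosome 18, had the smallest: its region rose by 2.28 in MZB and 1.01 in FoB, an interaction of 1.27 (adjusted p = 0.158). Near Fcamr, which encodes a receptor for IgM and IgA, a region rose by 2.89 in MZB and 1.54 in FoB (interaction 1.35, adjusted p = 0.74). Regions at Slc15a2, Sorcs2 and Bmt2 rose more in MZB as well, with interactions of 0.98, 0.76 and 0.52, and the upstream Cnr2 region rose more in FoB.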
